A study of Elopichthys bambusa with 12 samples.

Results

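Livers of yellowcheek carp (Elopichthys bambusa), a predatory cyprinid fish, that had been without food for 28 days were compared with livers of fish kept on a commercial diet, offered morning and evening, for the same 28 days. The comparison rests on 6 RNA sequencing libraries of the 12 in the series, 3 from fasted and 3 from fed fish, chosen by their labels alone. It covers 32212 of 42353 assembled transcript features, those with enough counts to be tested. The other 6 libraries, from fish fasted or fed for 8 days, entered the filter, the scaling and the shared estimate of the spread between libraries. They also entered the choice of a set of correlated features and the comparisons of the 28-day with the 8-day response. Strain, age and size of the fish are not given in the labels, nor is it said whether a library came from 1 fish or from several, so a p-value here covers the scatter among libraries, part of which may be technical.

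The liver stores glycogen and fat when food is available and releases glucose, lipids and ketone bodies when it is not. During a long fast the liver of vertebrates generally lowers the synthesis of fat and of much secreted protein and turns to fat oxidation, gluconeogenesis and the breakdown of its own protein. In cyprinid fish pancreatic tissue lies scattered within the liver, so that a liver sample can hold both. The features carry identifiers of a transcriptome assembled from the reads, and the files do not pair these with gene names. Markers of liver or pancreas could therefore not be read, and no role can be given to a single feature.

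The fasted libraries held 17872165 to 19901335 estimated counts and the fed libraries 16785827 to 19026072. On the first principal component of the 6 libraries, which took 40.8% of the variance, the fasted livers scored 78.2, 116 and 125 and the fed livers -82.7, -129 and -106. Features with at least 10 counts numbered 25465, 29684 and 26991 in the fasted livers, against 23877, 23760 and 23735 in the fed ones. Every fasted liver thus lay above all the fed ones, and the fed ones lay close together (SD 75.8, against 2136 among fasted livers). The exact permutation p was 0.1, the smallest that 3 against 3 libraries allow, and 0.25 after Benjamini-Hochberg adjustment over 10 such whole-library measures. The 1000 most abundant features of each library took 83.6%, 81.1% and 82.6% of its counts in fasted livers and 84.9%, 85.7% and 83.9% in fed livers, again without overlap (exact permutation p = 0.1, adjusted 0.25). The 100 most abundant took 56.6%, 54.5% and 55.6% in fasted and 57.0%, 57.3% and 55.4% in fed livers, with overlap (exact permutation p = 0.3, adjusted 0.5). The mean length of the counted features, weighted by their counts, overlapped between the groups, at 2614 ± 47 nucleotides in fasted and 2592 ± 66.7 in fed livers (SD, n = 3 each; exact permutation p = 0.7).

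After 28 days without food 1333 features were higher (4.14% of those tested) and 1864 were lower (5.79%) than in fed livers, 9.92% together (edgeR quasi-likelihood test, Benjamini-Hochberg adjusted p under 0.05). An unadjusted p under 0.05 was reached by 24.9%. The features that rose did so by a median of 1.56 on the log2 scale, with quartiles at 1.07 and 2.41. Those that fell had a median of -1.36, with quartiles at -2.13 and -0.96. A change in the RNA of bulk liver can come from fewer cells of a type or from less RNA per cell, and these cannot be told apart here. Most changes were moderate. Of the features that passed, 281 risen and 509 fallen ones changed by less than 2-fold, 595 and 835 by 2- to 4-fold, 220 and 258 by 4- to 8-fold, and 237 and 262 by 8-fold or more. The smallest changes that passed were 0.48 upward and -0.43 downward on the log2 scale.

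Large fold changes were often not called. Among the 10685 features with a fitted change of 2-fold or more, 22.5% passed, and among the 3611 with 4-fold or more 27.1% did. Estimates were looser where folds were large: the median standard error of the log2 fold change was 0.478 under 2-fold and 1.57 at 8-fold or more. They were also looser in scarce features, at 1.05 under 1 CPM (CPM, a count as a proportion of its TMM-scaled library) and 0.20 at 1000 CPM or more. Loose estimates reach large folds more readily, so the rise with fold follows in part from the classes. The standard error is also itself computed from the fold change (fold change over the root of F). The largest fitted folds belong to features that one group lacked. After rounding, no count remained in any fed library for 122 of the risen features, nor in any fasted library for 64 of the fallen ones. A mean under 3 counts was found in the fed group for 186 risen features and in the fasted group for 108 fallen ones. At this depth a feature without counts may be present at up to 3 counts per library, 0.15 to 0.18 CPM before scaling, which covers counting error only. The folds of the features without counts in a group depend on the small count that the fit adds, and form the straight edges in the plot of fold change against abundance.

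**Figure D1:**
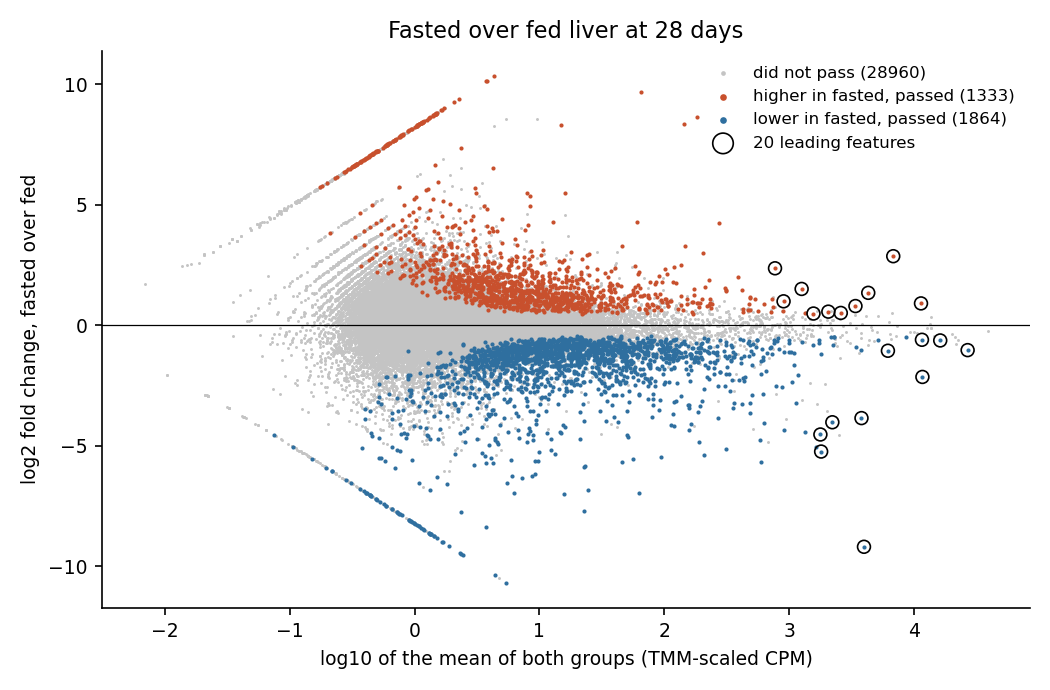
Each point is a feature with counts at 28 days, placed by the log10 of its mean TMM-scaled CPM over both groups and by its log2 fold change of fasted over fed livers; coloured points passed the test (1333 higher, 1864 lower) and rings mark the 20 leading features described in the text. Calls thin out toward low abundance, and above 100 CPM those that are lower outnumber those that are higher with TMM, though with library size alone 36 are higher and 26 lower at 1000 CPM or more.

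Direction went with abundance. Abundance classes were set by the higher of the fasted and the fed mean. Rises were the more frequent among scarce features, with 62 against 32 falls in the 8143 features under 1 CPM and 676 against 539 falls in the 17908 features of 1 to 10 CPM. In the 5126 features of 10 to 100 CPM there were 499 rises and 976 falls. Between 100 and 1000 CPM 84 of 859 rose and 272 fell, and at 1000 CPM or more 12 of 176 rose and 45 fell. Risen features thus made up 66.0% of the calls in the scarcest class and 21.1% in the most abundant one. The median fold change of all features in a class, called or not, moved the same way, through 0.22, 0.16, -0.15, -0.37 and -0.40 on the log2 scale from the scarcest class to the most abundant. The median over all tested features was 0.10.

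The balance of directions depends on how the libraries are scaled. TMM scaling gave factors of 0.996, 1.22 and 1.09 for the fasted libraries, against 0.842, 0.835 and 0.917 for the fed ones, so it lowers fasted values relative to fed ones. With library size alone the median of all features became 0.45, 69.1% of 3624 called features were higher in fasted livers, and at 1000 CPM or more 36 were higher and 26 lower. RLE and upper-quartile scaling gave 39.4% and 41.1% higher, against 41.7% with TMM. With library size alone all 1333 risen features still passed, and 1115 of the 1864 fallen ones did. The balance between rises and falls is therefore relative to the middle of each library.

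The sizes of the changes shifted with the scaling too. With TMM, at 1000 CPM or more the 45 fallen features had a median log2 fold change of -1.12, 12 of them fell by 8-fold or more, and the largest fall was 9.18. The 12 risen ones had a median of 0.86, none reached 8-fold, and the largest rise was 2.87. Between 100 and 1000 CPM the medians were -1.32 for the fallen and 1.09 for the risen features, with 31 and 7 at 8-fold or more. Among features of 10 to 100 CPM the medians were nearly equal in size, at -1.19 and 1.20, with 65 falls and 14 rises of 8-fold or more. With library size alone the same features, called with TMM, had medians of 1.20 for risen and -0.78 for fallen at 1000 CPM or more. They had 1.44 and -0.98 at 100 to 1000 CPM, and 1.55 and -0.85 at 10 to 100 CPM. This scaling moves nearly all folds upward by a like amount, so in these sets the rises were then the larger changes. The sizes among the features called with library size alone were not examined.

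The called features held a sizeable part of the RNA. The shares that follow are of unscaled library totals, and the sets were chosen on these same libraries, so the directions follow from the choice and are given as a description. The 1333 risen features took 9.2%, 11.6% and 10.1% of the counts in the fasted livers and 3.56%, 3.42% and 3.56% in the fed livers. The 1864 fallen ones took 14.1%, 14.7% and 14.5% in the fasted livers and 26.4%, 29.3% and 27.4% in the fed livers. The tested features that did not pass took 75% ± 1.58 in fasted and 68.6% ± 1.43 in fed livers (SD, n = 3 each). The loss of 13.2 percentage points in the fallen features was therefore matched by a gain of 6.76 points in the risen ones and of 6.43 points spread over features that did not pass. The fallen features took nearly the same share in each fasted liver, while the risen ones varied more there (SD 1.19 points) than in fed livers (SD 0.08 points).

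**Figure D2:**
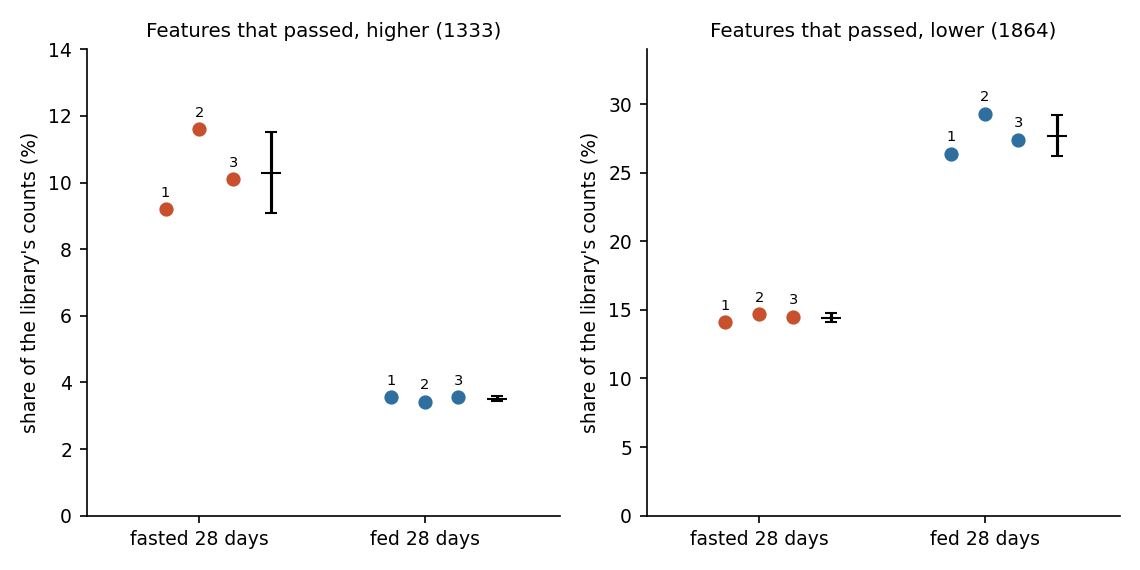
Points are the share of each 28-day library's counts (%) taken by the features that passed the test, numbered by replicate, and bars are the mean ± SD of 3 libraries; the left panel holds the 1333 higher and the right panel the 1864 lower features. The risen features take 9.2% to 11.6% in fasted and 3.42% to 3.56% in fed livers, and the fallen ones 14.1% to 14.7% and 26.4% to 29.3%.

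A few abundant features carried much of this shift. The 10 risen features with the largest gain held 53.3% of the whole gain and 8 were enough for 50%. The 10 fallen features with the largest loss held 39.9% of the loss, and 20 were needed for 50%. The 12 risen features at 1000 CPM or more held 5.71% ± 0.70 of all counts in fasted livers and 1.97% ± 0.03 in fed livers, and the 45 fallen ones 9.46% ± 0.37 and 17.5% ± 1.46 (SD, n = 3 each). Called features of low abundance were many but moved little RNA: the 676 risen ones of 1 to 10 CPM took 0.37% ± 0.06 in fasted and 0.09% ± 0.01 in fed livers. By size, the 262 features that fell by 8-fold or more took 0.29% ± 0.11 in fasted and 4.48% ± 1.18 in fed livers, and the 509 that fell by less than 2-fold 7.70% ± 0.41 and 9.58% ± 0.12.

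The features with the largest difference in mean CPM, among those that passed and whose libraries did not overlap, were examined one by one. This rule was met by 1325 risen and 1860 fallen features. Over all tested features the fasted livers lay entirely above the fed ones in 16.2% and entirely below in 15.3%. The largest gain was in TRINITY_DN14685_c2_g6_i11_4, a feature of 2222 nucleotides. It had 8997, 13633 and 13437 CPM in the fasted livers, against 2818, 1083 and 1023 CPM in the fed livers. Fasted replicates 2 and 3 lay close together with replicate 1 below them, and fed replicate 1 was more than 2-fold above the other fed livers, yet still far below every fasted one. The log2 fold change was 2.87 ± 0.49 (SE, edgeR adjusted p = 0.00467, higher in 3 of 3 fasted libraries), and the feature alone made up 17.7% of the gain in count share. Per length it stood at 5941 FPKM (fragments per kilobase, as deposited by the authors) in fasted and 629 FPKM in fed livers.

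TRINITY_DN14958_c1_g3_i5_1 (3455 nucleotides) had the next largest gain. It had 18237, 15241 and 11209 CPM in the fasted livers, against 7141, 8638 and 7924 CPM in the fed livers. Here fasted replicate 1 was the highest and replicate 3 the lowest, whereas in the feature before replicate 1 was the lowest fasted liver. The log2 fold change was 0.91 ± 0.18 (SE, edgeR adjusted p = 0.00849). Without fed replicate 1 it was 0.78 and no longer passed (edgeR adjusted p = 0.0585; range over all alternatives 6.76e-05 to 0.183).

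The other 8 of the 10 largest gains were features of 693 to 5820 nucleotides. The third, of 2647 nucleotides, had 5318, 6372 and 6890 CPM in fasted livers and 2054, 2882 and 2335 CPM in fed livers, a log2 fold change of 1.35 ± 0.18 (SE, edgeR adjusted p = 0.00104). The sixth, of 767 nucleotides, had the largest fold among these 8, with 1314, 1190 and 1376 CPM in fasted and 275, 170 and 305 CPM in fed livers, or 5.18 times as much (log2 fold change 2.37 ± 0.42, edgeR adjusted p = 0.00551). The ninth, of 693 nucleotides, was the most even among fasted livers, at 1170, 1164 and 1281 CPM, against 696, 502 and 608 CPM in fed livers. Those at ranks 4, 7, 8 and 10 rose by only 1.41 to 1.75 times, and each lost its call when at least 1 of the fasted libraries was left out. All 10 kept their direction in all 21 refits, which varied the scaling, filter, test and libraries. The rule took features whose groups did not overlap, so refits with fewer libraries could hardly turn their direction.

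The largest loss in mean CPM was in TRINITY_DN14541_c0_g1_i21_4 (3589 nucleotides). It had 19010, 17028 and 17244 CPM in the fasted livers, against 30598, 42327 and 35413 CPM in the fed livers. The fasted livers agreed closely, and the fed ones spread more widely above them without overlap. The log2 fold change was -1.02 ± 0.17 (SE, edgeR adjusted p = 0.00391), and the share of counts was 1.95% in fasted and 3.11% in fed livers. A loss here is relative to fish fed for 28 days: fish fed for 8 days averaged 18772 ± 505 CPM (SD), close to the fasted livers. TRINITY_DN16625_c1_g1_i6_3 (3116 nucleotides) had 4922, 3979 and 4109 CPM in the fasted livers, against 19549, 20086 and 17553 CPM in the fed livers, 4.40 times as much in fed as in fasted fish (log2 fold change -2.14 ± 0.18, edgeR adjusted p = 6.49e-05). It passed in each of the 21 refits, with log2 fold changes of -2.34 to -1.79. Per length it stood at 1491 FPKM in fasted and 5222 FPKM in fed livers. In share of counts its loss was the largest of all fallen features, with 0.473% in fasted and 1.64% in fed livers.

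The third largest loss, in a feature of 4359 nucleotides, left only a trace of it, with 14.9, 12.3 and 13.8 CPM in fasted livers and 7547, 8221 and 8082 CPM in fed livers. Both groups were tight, and its log2 fold change of -9.18 ± 0.20 (SE, edgeR adjusted p = 1.37e-09) was by far the largest among the 20 leading features. The fourth, sixth and seventh, of 3492, 647 and 3070 nucleotides, remained abundant in fasted livers, at means of 12799, 9243 and 4034 CPM, against 19703, 13957 and 8350 CPM in fed livers. Their log2 fold changes were -0.62, -0.59 and -1.05 (edgeR adjusted p = 0.0408, 0.0194 and 0.0143), and each lost its call when at least 1 of the fasted libraries was left out. With library size alone the fourth and the sixth had -0.27 and -0.26 and lost their calls (edgeR adjusted p = 0.172 and 0.18; over all alternatives 0.00383 to 0.366 and 9.19e-05 to 0.318). In FPKM, which carries no TMM scaling, the fourth overlapped between the groups, with 3642, 3870 and 4288 FPKM in fasted and 4607, 5538 and 4277 FPKM in fed livers. In fish fed for 8 days the fourth, sixth and seventh averaged 7291, 13016 and 4006 CPM, so the fourth and the seventh were no higher there than in livers fasted for 28 days. The direction of all 10 held in all 21 refits, which the choice of features without overlap favours.

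**Figure D3:**
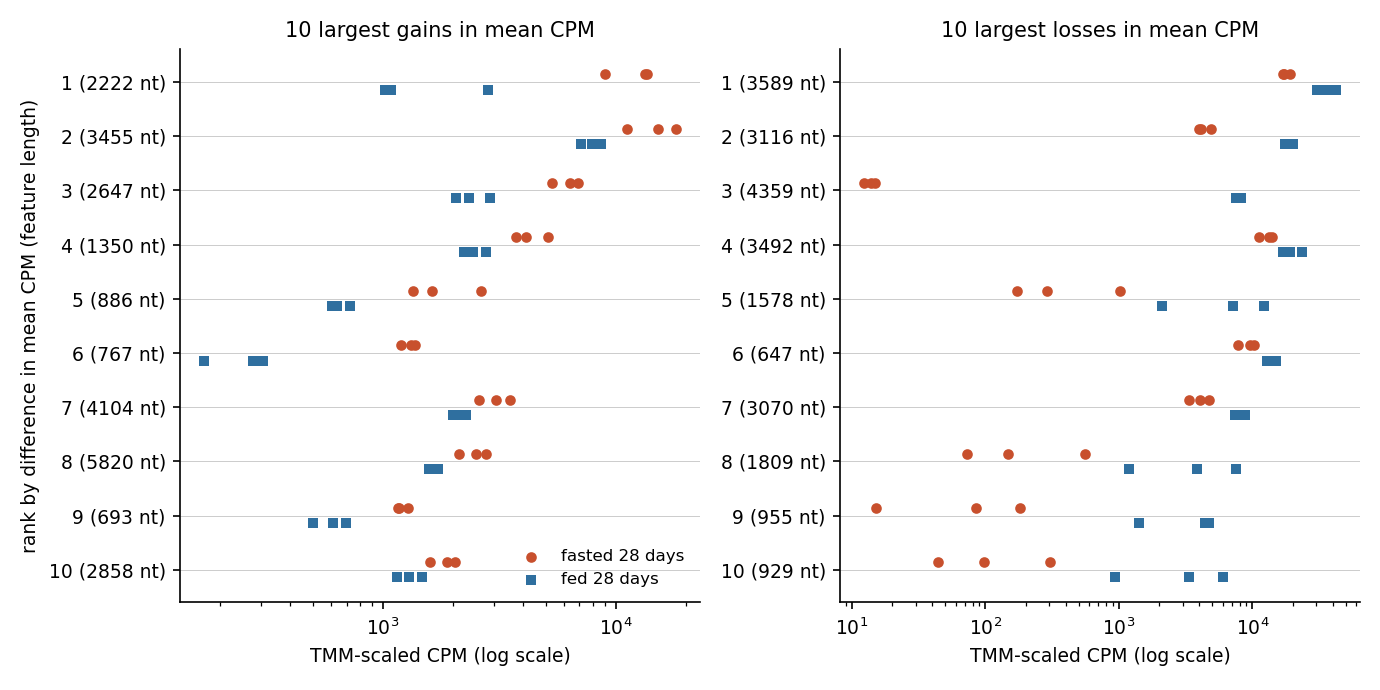
TMM-scaled CPM (log axis) of the 10 features with the largest gain (left) and the 10 with the largest loss (right) in mean CPM, by rank, with 1 circle per fasted and 1 square per fed 28-day library. Ranks 5, 8, 9 and 10 of the losses spread widely within each group, while rank 3 has tight groups at 12.3 to 14.9 and 7547 to 8221 CPM.

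The losses at ranks 5, 8, 9 and 10 were steep but uneven. The fifth, of 1578 nucleotides, had 172, 288 and 1026 CPM in the fasted livers, against 7134, 12111 and 2091 CPM in the fed livers. Fasted replicate 3 was thus much the nearest to the fed range, and fed replicate 3 much the nearest to the fasted one, without overlap. The eighth, of 1809 nucleotides, had 73.2, 147 and 556 CPM in fasted and 3828, 7546 and 1180 CPM in fed livers, in the same order of libraries. Their log2 fold changes of -3.84 ± 1.06 and -4.02 ± 1.14 (SE) only just passed (edgeR adjusted p = 0.0439 and 0.0491). Over the alternatives these p-values ranged from 0.000479 to 0.381 and from 0.00075 to 0.39. With library size alone both calls were lost (edgeR adjusted p = 0.0595 for the fifth, 0.0643 for the eighth).

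A set of features was gathered around the fifth loss, so a like order of libraries within it follows from the choice. Over all 12 libraries 18 features, counting the fifth itself, correlated with it at r of 0.98 or more in log2 CPM, a set chosen after its values were seen and given as a description. The lowest r inside was 0.981 and the highest outside 0.9796, so no clear gap marks the edge of the set. The ninth loss, at 0.978, lay just outside. The points share their libraries and so their depth and scaling. The set ran from 644 to 5701 nucleotides in length and from 29.4 to 7112 CPM in the higher group mean, and it held 3 of the 10 largest losses (ranks 5, 8 and 10). In all 18 features replicate 3 was the highest fasted liver, and replicate 2 was the highest and replicate 3 the lowest fed liver. In 14 of them every fasted liver lay below every fed one, as in 15.3% of all tested features. The full order of the 6 libraries seen in the fifth loss was followed by 13 of the 18.

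The fitted log2 fold changes of the set ran from -5.47 to -2.33, with a median of -3.81, and 9 of the 18 passed (edgeR adjusted p of 0.0231 to 0.199 over the set), against 5.79% called lower among all tested features. The set was chosen on these libraries, so nothing is read from these counts. Its share of all counts was 0.068%, 0.146% and 0.552% in the fasted livers, against 2.55%, 4.51% and 0.812% in the fed livers. Per feature the SD of log2 CPM was a median of 1.6 among fasted and 1.35 among fed livers, against 0.485 and 0.468 over all tested features. The 8-day livers, which helped to choose the set, showed the same contrast, with shares of 0.0686%, 0.201% and 0.0102% in fasted and 5.05%, 4.57% and 1.39% in fed fish. In the steepest falls the fed livers varied more inside the set than outside it, which the choice around an uneven feature favours. Among the features fallen by 8-fold or more, 8 of the set took 0.116% ± 0.111 in fasted and 1.52% ± 1.08 in fed livers, while the 253 others, leaving out also the third largest loss, took 0.173% ± 0.037 and 2.27% ± 0.13. Without the set the fallen features as a whole took 14.3% ± 0.32 in fasted and 26.2% ± 1.11 in fed livers (SD, n = 3 each).

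**Figure D4:**
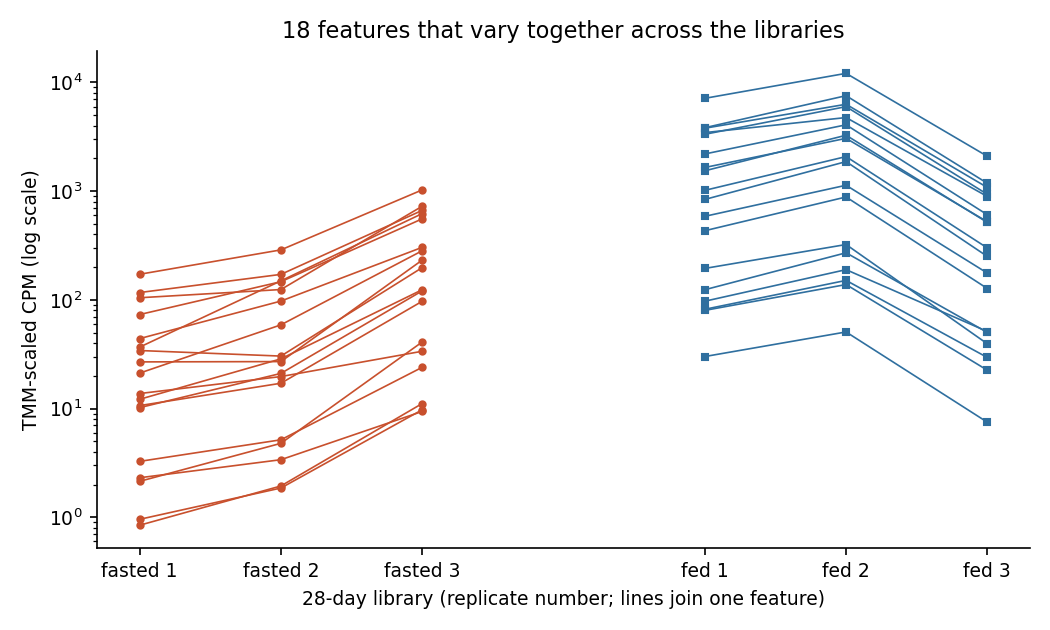
TMM-scaled CPM (log axis) of the 18 features chosen for their correlation with the fifth largest loss, in the 3 fasted and 3 fed 28-day libraries, with lines joining the values of 1 feature within a group. All 18 are highest among fasted livers in replicate 3, where the set took 0.552% of the counts, and among fed livers highest in replicate 2 and lowest in replicate 3.

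Feature length and the last number of the identifier also went with the direction. Features under 500 nucleotides rose in 222 and fell in 122 of 9780 cases, and those of 2000 nucleotides or more rose in 370 and fell in 662 of 4596. The median length was 1181 nucleotides for risen, 1618 for fallen and 760 for all tested features. Within abundance classes the risen features had the shorter median in all but the most abundant class. The medians were 428 nucleotides for risen and 550 for fallen features under 1 CPM, 896 and 1128 at 1 to 10 CPM, 1784 and 1826 at 10 to 100 CPM, and 1708 and 2099 at 100 to 1000 CPM. At 1000 CPM or more the order was the other way, with 2434 and 1926 nucleotides. Each identifier ends in a number from 1 to 4 whose meaning the files do not state. Of the called features 30.1% rose among those ending in 1, 45.8% in 2, 62.3% in 3 and 22.1% in 4. At 10 CPM or more these shares were 25.5%, 34.4%, 45.7% and 17.7%, and falls outnumbered rises under each number. The share of all counts taken by each number overlapped between the groups (exact permutation p = 0.2 to 0.8), and the part of this number in the calls was not tested.

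How much of this rests on the spread among the 3 fasted livers was examined in several ways. Among scarce features the groups were equally loose: the median SD of log2 CPM was 0.752 in fasted and 0.804 in fed livers under 1 CPM, and 0.480 and 0.487 between 1 and 10 CPM. Among abundant features the fasted livers varied more. The medians were 0.292 and 0.206 at 10 to 100 CPM, 0.302 and 0.144 at 100 to 1000 CPM, and 0.252 and 0.145 at 1000 CPM or more, where the fasted SD was the larger in 72.2% of features. The common dispersion, which scarce features dominate, was 0.292 within the fasted and 0.306 within the fed group. Among the 1864 fallen features the fasted SD was the larger in 67.2%, and among the 1333 risen ones in 52.6%, against 50.6% of all tested features. Called or not, it was the larger in 62.0% of features at 10 to 100 CPM and 76.0% at 100 to 1000 CPM. Fallen features were more abundant than risen ones (median 19.8 against 8.69 CPM), and a difference beyond abundance was not tested.

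Among features at 10 CPM or more fasted replicate 1 stood apart from replicates 2 and 3. Of these features 14.1% differed by 2-fold or more between fasted replicates 1 and 2 and 12.5% between 1 and 3, but 5.52% between 2 and 3. The 3 pairs of fed livers had 6.91%, 5.18% and 4.89%. Over all tested features, most of them scarce, replicate 1 did not stand apart in this way from the fed pairs. Its pairs had 29.8% and 30.3%, replicates 2 and 3 had 24.1%, and the fed pairs 30.4%, 28.1% and 27.3%. When libraries were weighted by their agreement with the group, fasted replicate 1 received the lowest weight of the 6, 0.57, against 0.887 and 1.22 for fasted replicates 2 and 3 and 0.887 to 1.57 for the fed ones. In that fit of all 12 libraries replicate 2 of the fish fasted for 8 days received less, 0.443.

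With TMM scaling the response was also the weakest in replicate 1. Relative to the fed mean the risen features stood at a median of 1.38, 1.56 and 1.53 on the log2 scale in fasted replicates 1, 2 and 3, and the fallen ones at -1.20, -1.47 and -1.38. Replicate 1 was the highest of the 3 fasted livers, that is, nearest to the fed level, for 56.2% of the fallen features, against 36.2% of all tested ones. It was the lowest for 46.5% of the risen features, against 38.3% of all. Among the 272 fallen features of 100 to 1000 CPM it was the highest for 64.3%. The order did not hold throughout: in the 12 risen features at 1000 CPM or more the medians were 1.01, 0.85 and 0.74 in replicates 1, 2 and 3. In unscaled shares of counts the risen features took 9.2%, 11.6% and 10.1% in these replicates, least in replicate 1. The fallen ones took 14.1%, 14.7% and 14.5%, so without scaling replicate 1 was not the nearest to the fed level for them.

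Leaving out single fasted livers moved rises and falls differently. Without replicate 1, 1094 features were higher and 2307 lower. Without replicate 2 the numbers were 708 and 1063, and without replicate 3 they were 692 and 1122. Leaving out a library also leaves fewer samples, and without single fed libraries 630 to 1048 features were higher and 1206 to 1588 lower. Among the most abundant features, at 1000 CPM or more, 45 fell with all libraries, 46 without fasted replicate 1, 17 without replicate 2 and 28 without replicate 3. The loss in count share of the features called lower was 13.2 percentage points with all libraries and 8.25 points with those called without replicate 2.

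A core held in every such fit. Of the risen features 516 (38.7%), and of the fallen ones 923 (49.5%), passed in the same direction whichever fasted liver was left out. These had larger changes than the rest, with median log2 fold changes of 1.80 against 1.38 for risen and -1.55 against -1.17 for fallen features. They were also more abundant, at a median of 13.1 against 7.10 CPM and 29.5 against 13.6 CPM. Passing in each of these smaller fits favours large changes and abundant features, so both differences follow in part from the choice. By abundance, 16 of 62 risen and 13 of 32 fallen features under 1 CPM belonged to the core, and 205 of 676 and 174 of 539 at 1 to 10 CPM. The shares were larger at 10 to 100 CPM, with 235 of 499 and 545 of 976, and at 100 to 1000 CPM, with 53 of 84 and 174 of 272. At 1000 CPM or more 7 of 12 risen and 17 of 45 fallen features belonged to it.

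**Figure D5:**
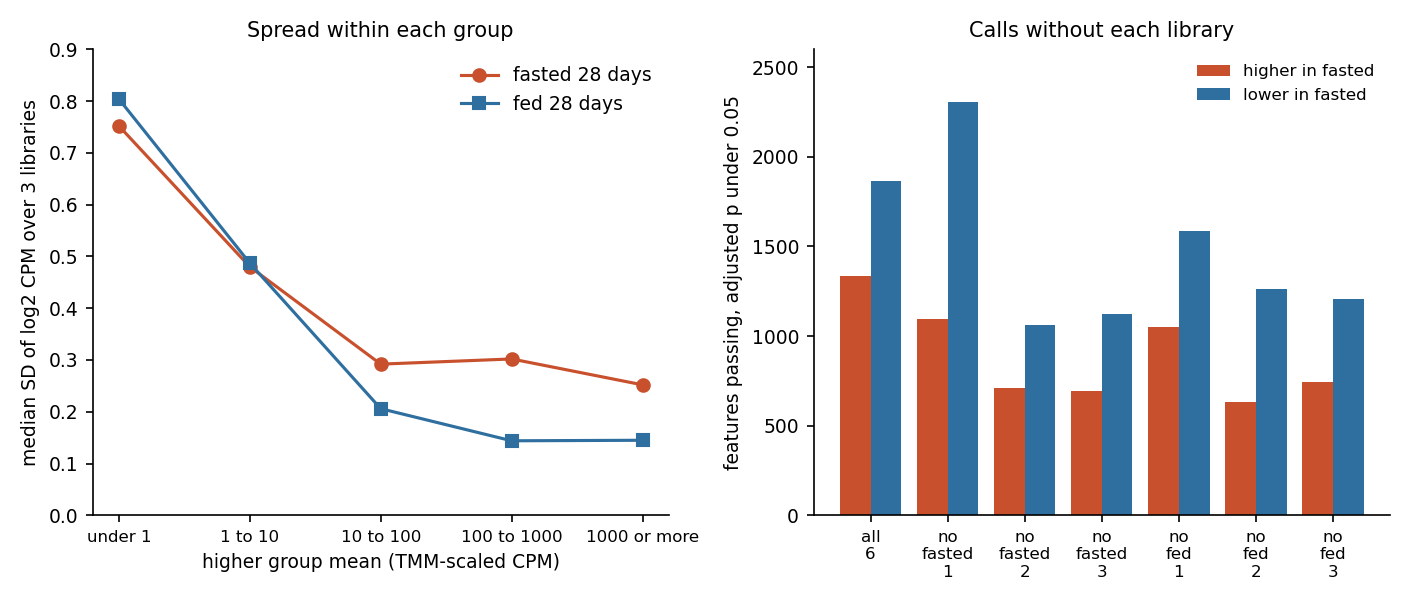
The left panel shows the median SD of log2 CPM over 3 libraries within the fasted (circles) and fed (squares) 28-day groups, by abundance class; the right panel shows the number of features that passed higher or lower in fasted livers with all 6 libraries and without each one. Above 10 CPM the fasted livers are the more variable, and calls of lower features reach 2307 without fasted replicate 1 and 1063 without replicate 2.

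Each fasted liver was then read against calls that it had not helped to make. Features were called with the other 2 fasted livers, and the third was compared with the 3 fed libraries, which did take part in the calling. Of the 1094 features called higher without replicate 1 (3.40% of those tested), 93.1% lay above all fed livers in replicate 1, against 32.6% of all tested features. Of the 2307 called lower (7.16%), 91.8% lay below, against 28.1% of all. For replicate 2 these shares were 97.7% of 708 (2.20% of those tested) and 99% of 1063 (3.30%), against 35.3% and 28.5% of all tested. For replicate 3 they were 98.4% of 692 (2.15%) and 97.9% of 1122 (3.48%), against 35.0% and 29.4%. Features on the wrong side of all fed livers were few, 7 and 29 for replicate 1, 3 and 3 for replicate 2, and 0 and 2 for replicate 3.

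The sizes did not carry over equally. Folds of the 2 fasted livers used for calling come from the refit, and these livers also chose the features. Values of the left-out liver are differences in log2 CPM from the fed mean. Some loss of size in it can therefore follow from the choice and from the unlike measures. Features called without replicate 1 had median log2 fold changes of 1.70 and -1.46 in the other 2 fasted livers, and stood at 1.21 and -0.91 in replicate 1. Those called without replicate 2 had 1.67 and -1.53, and stood at 1.52 and -1.57 in replicate 2. For replicate 3 the values were 1.71 and -1.56 in the others and 1.51 and -1.44 in it. Among the features so called, the direction was thus mostly seen in each fasted liver. The drop in size was largest for replicate 1, in values that carry TMM scaling.

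With a single fasted liver set against the 3 fed ones, and its spread taken from the other groups, 545, 1130 and 831 features passed for replicates 1, 2 and 3. Of these, 506, 1014 and 773 were among the 3197, in the same direction. The lone library is assumed here to vary like the other groups.

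The sets defined at 28 days can be placed beside the 8-day libraries, which share no library with this comparison but share the fit. At 8 days 25.3% of all features passed. The 1333 risen features took 9.2% ± 2.17 of the counts in fish fasted for 8 days and 4.13% ± 0.06 in fish fed for 8 days. The 1864 fallen ones took 14.9% ± 0.59 and 23.5% ± 0.27 (SD, n = 3 each). At 8 days 540 of the risen features were also higher and 101 lower, against 13.3% higher and 12.1% lower among all features tested at that time. Of the fallen ones 830 were also lower and 275 higher. Among the leading features, TRINITY_DN14685_c2_g6_i11_4 averaged 9193 ± 4376 CPM in fasted and 3164 ± 1097 CPM in fed fish at 8 days, and its response did not pass the test of a difference between the durations (0.206 by edgeR, adjusted; log2 difference 1.33 ± 0.65 SE). TRINITY_DN14541_c0_g1_i21_4 averaged 20180 ± 4280 CPM in fasted and 18772 ± 505 CPM in fed fish at 8 days, and here the responses differed (edgeR adjusted p = 0.00996), with every fed liver at 28 days above every library of the other groups. Over all features 6.24% had a higher and 8.13% a lower log2 fold change at 28 than at 8 days by this test. Among the 1333 risen features 467 (35.0%) and among the 1864 fallen ones 768 (41.2%) passed it, but the 28-day values chose these sets, so the shares are a description.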

How the data were processed

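The authors deposited 2 tables of 42353 features in 12 liver libraries: estimated counts per feature, which are not whole numbers, and FPKM values. The tools named, per the submitters' processing notes, are Trimmomatic and Bowtie2. For versions, assembler and abundance estimator: not given in the sources used here. As stated per the labels' protocols libraries were stranded mRNA libraries from RNA with an integrity number of at least 7. Columns were matched to samples by group code and replicate number. With the last number kept as part of the locus name, each identifier is the sole one of its locus. Whether identifiers with different last numbers belong to the same locus was not tested. Count over FPKM gave feature lengths (whole within 0.02 nucleotides for 100% of features).

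Counts were rounded. Features were kept with filterByExpr (32212 kept, 10141 left out; 99.7% to 99.9% of counts kept). All 12 libraries were fitted as 4 group means with edgeR 4.0.16 in R 4.3.3 (TMM, robust quasi-likelihood F test), with Benjamini-Hochberg adjustment over all of them and a threshold of 0.05. Standard errors are approximate (fold change over the root of F). CPM are TMM-scaled, log2 CPM use a prior count of 2, and shares use unscaled totals. The test was also run on counts simulated from the means and fitted spread of these libraries. Such counts follow the model of the test, so that run cannot show whether the model holds here. Library pairs within the groups differed beyond sampling noise (chi-square per feature 26.1 to 51.9), so all 6 were kept as separate samples.

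The leading features were set by rule: the 10 largest differences in mean CPM each way among features that passed and did not overlap, of which 2 and 2 are named by identifier. The comparison, classes and rules were chosen with earlier results of these data known. Alternatives were other scalings, filters, libraries and thresholds, DESeq2 1.42.0, and limma 3.58.1 on log2 FPKM and on weighted log2 counts.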

Additional observations from a re-analysis of the deposited data

Results flagged for a closer look

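Of the 20 leading features, 7 differed between 28 and 8 days in the fold of fasted over fed. This is by edgeR's test of the difference itself, adjusted over all features, of which 14.4% passed that test. The 20 were chosen by their 28-day difference, which is part of this contrast, so the count of 7 is a description. The values are the log2 fold change of fasted over fed at 28 days minus that at 8 days. Among the risen ones TRINITY_DN14958_c1_g3_i5_1 had -1.08 (edgeR adjusted p = 0.015), the sixth largest gain -4.44 (0.000733) and the seventh -0.82 (0.0176), so that all 3 rose more at 8 days. The sixth averaged 1421 ± 402 CPM in fasted and 12.6 ± 8 CPM in fed fish at 8 days, against 1294 and 250 CPM at 28 days (n = 3 each). Among the fallen ones TRINITY_DN14541_c0_g1_i21_4 had -1.13 (edgeR adjusted p = 0.00996), TRINITY_DN16625_c1_g1_i6_3 -1.22 (0.00691), the fourth largest loss -1.61 (0.0014) and the seventh -1.28 (0.0214). The fourth was higher in fasted fish at 8 days (log2 fold change 0.99, edgeR adjusted p = 0.00154) and lower at 28 days. It averaged 14438 CPM in fasted and 7291 CPM in fed fish at 8 days, and 12799 and 19703 CPM at 28 days. In all 7 the fed mean was higher at 28 than at 8 days, and the fasted mean changed by less CPM. For the fallen ones the choice by loss at 28 days favours a high fed mean at that time. For TRINITY_DN16625_c1_g1_i6_3 the fed mean went from 8986 to 19063 CPM and the fasted one from 4751 to 4337 CPM. A difference in response can therefore not be told apart from a difference between the fed controls.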

How the results depend on the processing

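No feature among the 3197 that was tested again changed direction under another filter or without any 1 library. Of these features 1325 risen and 1860 fallen ones did not overlap between the groups. Leaving out libraries could therefore hardly turn them. With 1 fasted library alone, 2 risen features turned with replicate 1, 1 with replicate 2 and 0 with replicate 3. Leaving out single libraries gave 1771 to 3401 features in all, 630 to 1094 higher and 1063 to 2307 lower, with fewer samples in each fit. With 1 fasted library alone, replicate 1 gave 545 features (222 higher, 323 lower), replicate 2 gave 1130 (343 and 787) and replicate 3 gave 831 (336 and 495). Library size alone gave 2505 higher and 1119 lower, and DESeq2 5454 (2429 and 3025). Limma gave 2335 higher and 1357 lower on log2(FPKM + 1), and 2339 and 1178 on log2(FPKM + 0.1). On weighted log2 counts it gave 4423 (1742 and 2681). An adjusted p under 0.01 gave 1239 (418 and 821). A fit of the 6 libraries alone gave 2150 (769 higher, 1381 lower). Of the 3197 features, 1951 (61%) passed in that fit in the same direction.

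The share of higher features, 41.7%, turned to 69.1% with library size alone and to 63.2% and 66.5% with limma on log2(FPKM + 1) and log2(FPKM + 0.1), which carry no TMM scaling. The median log2 fold change over all features tested, 0.10, became -0.00425 without fasted replicate 1, and -0.00132 and -0.0234 with replicate 1 or 2 as the sole fasted library; the cause was not tested.

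Whether the replicate numbers pair the samples cannot be settled with so few libraries. Deviations of same-numbered libraries correlated at -0.00762, 0.0806 and -0.0217, and those of other-numbered ones at -0.0456 to 0.0553. With the replicate block in the fit of the 6 libraries 357 features passed (94 higher, 263 lower). Counts summed over loci were not run, since each locus has 1 identifier when the last number is kept in its name. Sums across last numbers were not run either. Of the 20 leading features over 21 alternatives, 291 values stayed past the threshold, 129 did not and 0 changed direction. That 0 changed direction follows in large part from choosing features whose groups did not overlap. The median standard error was 1.05 in features under 1 CPM and 0.20 at 1000 CPM or more. The parts of counting error and of spread between libraries in it were not tested.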
